A study of Rattus norvegicus with 20 samples.

Results

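The Egr genes Egr1, Egr2, Egr3 and Egr4 encode zinc finger transcription factors that neurons make within minutes of being activated. They were chosen by name, as the probe sets of the array that the platform's gene table assigns to 1 gene of the family. This gave 4 genes and 6 probe sets, out of 14218 genes and 31099 probe sets in the deposited table. The ethanol group consisted of 10 alcohol-preferring (P) rats with access to 15 and 30% ethanol while adolescent, and the water group of 10 P rats of the same selected line that were given water alone. RNA of the nucleus accumbens shell, part of the ventral striatum, was measured with 1 array per animal, so the spread within a group includes that between animals. The P line has been bred for voluntary ethanol drinking, both groups carry that background, and no animals of another line were compared. The question was how expression in this region differed between drinking and water-only animals.

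Egr proteins bind GC-rich promoter sites through fingers that the family shares, and switch on a later set of genes. Their own genes are driven by serum response factor with its Elk partners, which MAP kinases activate, and by CREB. The corepressors Nab1 and Nab2 bind the Egr proteins, and Nab2 is itself an Egr target. Egr1, also called zif268 or NGFI-A, is known for its part in synaptic plasticity and memory and is readily detected in striatal projection neurons.

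Values are on the log2 scale of RMA, so a difference of 1 is a doubling, and levels of different genes are not set against each other because their probe sets differ. Egr1 has 1 probe set (1368321_at) and Egr3 1 (1369545_at), while Egr2 and Egr4 have a pair each. The probe set with the highest mean stands for the gene, 1387306_a_at for Egr2 and 1387442_at for Egr4. Probe sets whose mean over the 20 arrays was under 6.65 were left out of the fit as dim. Of the 6 Egr probe sets 4 lay above that level. The Egr3 probe set, with a mean of 6.16, and the further Egr2 probe set, with a mean of 5.50, lay below it, so Egr3 was read from the fit without the filter.

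The promoters of Egr1, Egr2 and Egr4 are shown. That of Egr3 is not, because the set of promoter sequences used held no entry for it. Each sequence runs from 250 bases before to 50 bases after the annotated start (RefSeq, rat build GRCr8). The Egr2 start used lies inside the gene's annotated span, chr20:21050149-21055201, and not at its upstream end. Capitals mark CArG boxes, the core of the serum response element, and matches to CGTCA on either strand. CGTCA is a short form of the cAMP response element that CREB binds. Only exact matches to CCWWWWWWGG, where W is A or T, were counted as CArG boxes.
Egr1, chr18:26736828-26737127, plus strand: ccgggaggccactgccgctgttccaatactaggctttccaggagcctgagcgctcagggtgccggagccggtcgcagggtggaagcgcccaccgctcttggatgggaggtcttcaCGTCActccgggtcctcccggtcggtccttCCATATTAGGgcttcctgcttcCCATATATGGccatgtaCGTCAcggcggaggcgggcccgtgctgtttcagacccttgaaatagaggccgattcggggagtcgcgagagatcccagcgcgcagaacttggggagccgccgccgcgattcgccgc
Egr2, chr20:21054392-21054691, minus strand: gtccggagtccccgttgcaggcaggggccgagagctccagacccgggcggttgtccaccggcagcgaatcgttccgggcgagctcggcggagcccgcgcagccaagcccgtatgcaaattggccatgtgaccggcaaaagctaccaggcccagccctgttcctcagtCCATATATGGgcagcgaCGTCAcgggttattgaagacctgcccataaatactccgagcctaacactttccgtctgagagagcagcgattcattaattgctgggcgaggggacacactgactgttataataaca
Egr4, chr4:119607768-119608067, minus strand: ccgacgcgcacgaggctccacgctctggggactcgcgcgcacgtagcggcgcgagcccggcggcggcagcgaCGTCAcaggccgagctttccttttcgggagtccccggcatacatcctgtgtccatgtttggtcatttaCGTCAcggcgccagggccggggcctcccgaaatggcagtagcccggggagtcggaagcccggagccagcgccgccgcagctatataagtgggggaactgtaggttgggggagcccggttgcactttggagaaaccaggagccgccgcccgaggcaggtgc

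The Egr1 window holds 2 CArG boxes and 2 CGTCA matches, the Egr2 window 1 of each, and the Egr4 window 2 CGTCA matches and no exact CArG box. Near matches to the CArG box were not sought. Counting the start base as 0, a CArG box begins at -83 and a CGTCA match at -66 in both Egr1 and Egr2. In all 33469 rat promoter windows of this length, 1.64% hold a CArG box, 21.2% a CGTCA match on either strand and 0.272% both. No match to the Egr site GCGNGGGCG was found in these 3 windows on either strand, and 4.98% of all windows hold one. The full cAMP response element TGACGTCA, which contains the short form, is not in the 3 windows either and is in 1.83% of all.

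**Figure D1:**
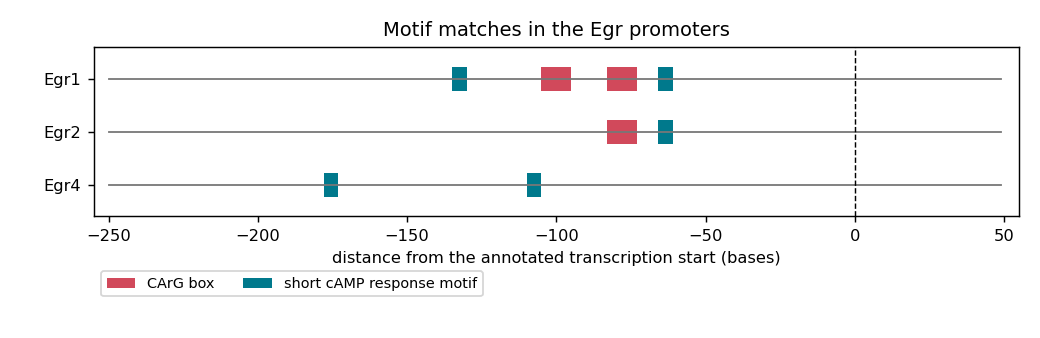
Map of motif matches in the promoters of Egr1, Egr2 and Egr4, with the distance in bases from the annotated transcription start on the x axis and the start as a dashed line. Red blocks are CArG boxes and teal blocks matches to the short cAMP response motif, drawn to scale. The CArG box at -83 and the short motif at -66 lie at the same places in Egr1 and Egr2.

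None of the 4 Egr genes passed the test between ethanol and water animals. Egr1, Egr2 and Egr4 had nearly equal group means, and Egr3, on its dim probe set, was slightly higher in ethanol. Over all 20695 probe sets tested, 20 passed an adjusted p of 0.05 (limma, Benjamini-Hochberg), which is 0.0966%, so that 0 of 4 is near the background.

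Egr1 ranged in ethanol animals over 12.92, 13.18 and 13.49 (lowest, median, highest) and in water animals over 12.05, 13.30 and 13.49. The groups overlapped over nearly the whole ethanol range, and 1 water animal, number 20, lay far below all others. The means were 13.19 ± 0.20 in ethanol and 13.16 ± 0.44 in water (SD, n = 10 each), a difference of 0.04 ± 0.14 (SE) with a 95% interval of -0.26 to 0.33 (limma, adjusted p = 0.932). On the fold scale that interval runs from 0.838 to 1.25.

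Egr2, also called Krox20, is best known from hindbrain segmentation and from myelination by Schwann cells, and is an early gene in neurons. Its values were 10.14, 10.67 and 11.12 in ethanol animals and 8.72, 10.95 and 11.28 in water animals (lowest, median, highest). Water animal 20 was again the lowest of all 20. The median was lower in ethanol, and 1 of 10 ethanol animals lay above the water median, while the means were nearly equal at 10.69 ± 0.27 and 10.71 ± 0.75. The difference was -0.03 ± 0.23 (SE), with an interval of -0.51 to 0.46 (adjusted p = 0.972).

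Egr4, also called NGFI-C, had 10.93, 11.14 and 11.41 in ethanol animals and 9.90, 11.34 and 11.63 in water animals. Here too 1 of 10 ethanol animals lay above the water median, and water animal 20 was the lowest. The means of 11.16 ± 0.15 in ethanol and 11.17 ± 0.53 in water gave a difference of -0.01 ± 0.16 (SE), with an interval of -0.34 to 0.32 (adjusted p = 0.983).

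Egr3, which in mice is needed for muscle spindles and which acts downstream of early synaptic signals, was measured by a dim probe set. Its values were 6.002, 6.27 and 6.52 in ethanol animals and 5.79, 6.09 and 6.28 in water animals, and 8 of 10 ethanol animals lay above the water mean. The difference of 0.16 ± 0.07 (SE) had an interval of 0.02 to 0.30 (unadjusted p = 0.0312, adjusted p = 0.443 by limma). In the filtered fit 12.1% of all probe sets had an unadjusted p under 0.05. The RMA summary compresses differences at low signal, and how far it lowered this one was not tested.

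**Figure D2:**
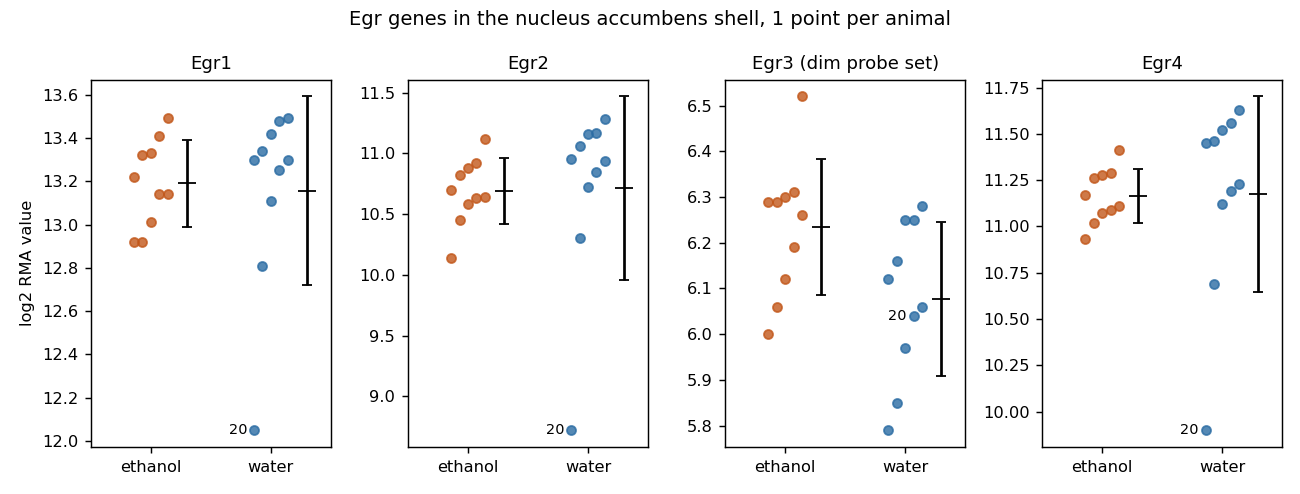
Log2 RMA values of Egr1, Egr2, Egr3 and Egr4, with 1 point per animal, ethanol left and water right, and bars for the mean and SD of 10 animals each. Each panel has its own y axis. Water animal 20 is numbered, and it lies below all other animals for Egr1, Egr2 and Egr4 but within the water group for Egr3.

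The further probe sets did not pass either. The dim Egr2 probe set 1398266_a_at differed by 0.04 (interval -0.12 to 0.20, adjusted p = 0.884), and over all animals it went with the brighter one (Pearson r = 0.53, n = 20, permutation p = 0.0126, adjusted over 2 pairs 0.0253, Spearman rho = 0.57, permutation p = 0.00996, and r = 0.52 without ethanol animal 1 and water animal 20). The further Egr4 probe set 1375784_at had 6.90 ± 0.12 in ethanol and 6.97 ± 0.09 in water and differed by -0.07 (interval -0.17 to 0.03, adjusted p = 0.556). It did not go with the brighter Egr4 probe set (r = 0.18, n = 20, permutation p = 0.47, adjusted 0.47, rho = 0.12, permutation p = 0.608, and r = -0.07 without water animals 17 and 20). Values of these correlations are deviations from group means, so a group difference adds nothing to them.

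The water group was more spread out for the bright members. The SD in water was 2.18 times that in ethanol for Egr1, 2.77 times for Egr2 and 3.55 times for Egr4, and 1.13 times for Egr3. Over all probe sets tested the median of this ratio was 1.47, and 81.3% had the larger SD in water. The ratios of Egr1, Egr2 and Egr4 were higher than those of 81.3%, 92.4% and 97.6% of the probe sets. The further Egr4 probe set, which lay above the filter, went the other way, with a ratio of 0.707, higher than that of 4.59% of the probe sets. The further Egr2 probe set, below the filter, had a ratio of 1.66.

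Without water animal 20 that spread was smaller. Its values were 12.05 for Egr1, 8.72 for Egr2 and 9.90 for Egr4, against means of 13.28 ± 0.21, 10.94 ± 0.30 and 11.31 ± 0.29 in the other 9 water animals. Animal 20 thus differed from them by -1.22, -2.21 and -1.41 on the log2 scale. On the further Egr4 probe set it had 6.87, inside the water range of 6.83 to 7.10. Among 10746 genes Egr2 had the lowest deviation of all in this animal, Egr4 ranked 19 and Egr1 ranked 33 from the lowest. The animal was picked after its values were seen, and these ranks are a description.

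Other early genes were low in the same animal. Of the 32 others above the filter, 18 (56.2%) had their lowest water value there, against 14.4% of all 10746 genes. Ptgs2, the inducible cyclooxygenase, differed from the other water animals by -2.12, the orphan nuclear receptors Nr4a1 and Nr4a3 by -1.60 and -1.47, Arc by -1.57 and Fosb by -1.24. Sgk1, a glucocorticoid-induced kinase, was 0.38 above them, Jun 0.26 above and Ier2 0.14 above, so the early genes did not all go one way.

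**Figure D3:**
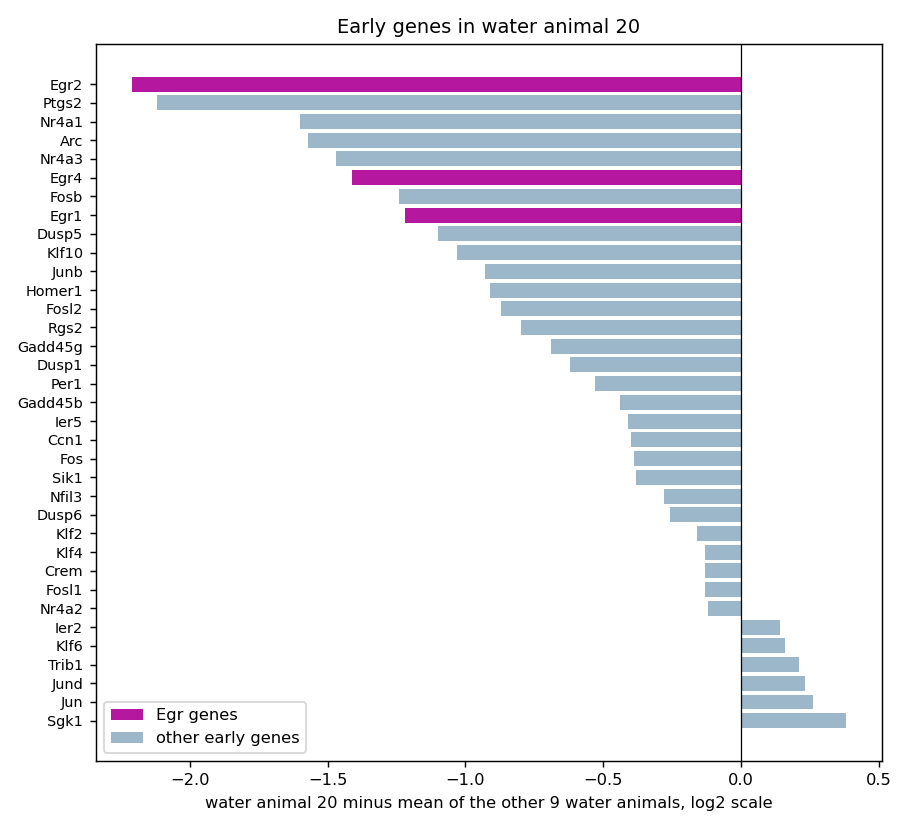
Difference on the log2 scale between water animal 20 and the mean of the other 9 water animals, for the Egr genes (magenta) and 32 other early genes (grey-blue), sorted by size. Egr2 has the longest bar at -2.21, followed by Ptgs2 at -2.12, and 6 genes lie above 0.

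The same array stood apart in other ways. Its median correlation with the other arrays, 0.9725, was the lowest of the 20, and its mean of 19 medium spiny neuron markers was 11.52, also the lowest. Its 3' minus 5' value, which rises as RNA degrades, was 1.25 and lay inside the range of 1.06 to 1.70 of all arrays. Medium spiny neurons are the projection neurons of the striatum, and all 19 measured markers of the 20 listed were bright enough for the fit. Their mean was 12.74 ± 0.22 in ethanol (range 12.27 to 12.97) and 12.46 ± 0.49 in water (range 11.52 to 12.97), with water animals 17, 19 and 20 at 11.81, 12.02 and 11.52. In tissue RNA, fewer cells of a type and less of a transcript per cell cannot be told apart.

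Without water animal 20 the bright members were lower in ethanol, and none passed. Egr1 then differed by -0.09 (interval -0.27 to 0.10, adjusted p = 0.756), Egr2 by -0.25 (interval -0.50 to 0.0024, adjusted p = 0.472) and Egr4 by -0.15 (interval -0.36 to 0.05, adjusted p = 0.597). Egr3 differed by 0.15 (adjusted p = 0.528). When animals 17 and 19 of the water group were left out as well, the difference was -0.37 for Egr2 (interval -0.59 to -0.15, unadjusted p = 0.00227, adjusted p = 0.184) and -0.27 for Egr4 (interval -0.42 to -0.12, unadjusted p = 0.00139, adjusted p = 0.158). These 3 animals were picked for low neuronal markers in earlier results, and Egr2 and Egr4 go with those markers, and their removal therefore pushes up the water level of these genes by construction. With the marker mean as a covariate and all 20 animals, Egr1, Egr2 and Egr4 differed by -0.16, -0.34 and -0.25 (adjusted p = 0.584, 0.492 and 0.366).

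Egr1, Egr2 and Egr4 varied together from animal to animal, and Egr3 did not vary with them. The correlation of deviations from group means was r = 0.94 for Egr1 with Egr2, 0.94 for Egr1 with Egr4 and 0.96 for Egr2 with Egr4 (n = 20 animals, permutation p = 1e-05 for each, the smallest 100000 resamples can give, adjusted over 6 pairs 2e-05). Spearman's rho was 0.81, 0.87 and 0.93 (permutation p = 4e-05, 1e-05 and 1e-05). Leaving out the 2 animals farthest from the median of the gene named first gave r = 0.71, 0.74 and 0.89 (permutation p = 0.00101, 0.00056 and 1e-05). Without water animal 20 the values were 0.81, 0.84 and 0.88.

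The relation was also computed inside each group. In ethanol animals r was 0.85 for Egr1 with Egr2, 0.84 for Egr1 with Egr4 and 0.95 for Egr2 with Egr4 (n = 10, permutation p = 0.00135, 0.00283 and 7e-05). In water animals it was 0.96, 0.97 and 0.97 (n = 10, permutation p = 0.0027, 0.00047 and 0.00022), with water animal 20 included. Spearman's rho was 0.92, 0.82 and 0.94 in ethanol (permutation p = 0.00054, 0.00624 and 0.00023) and 0.64, 0.79 and 0.87 in water (permutation p = 0.0543, 0.00872 and 0.00215, adjusted 0.109, 0.0262 and 0.0129), so Egr1 with Egr2 did not pass by rank in water animals. Ethanol animal 9 was the highest of its group for Egr1, Egr2 and Egr4, at 13.49, 11.12 and 11.41, and ethanol animal 1 the lowest for Egr2 and Egr4, at 10.14 and 10.93. Water animal 17 was next to animal 20 at the low end, at 12.81, 10.30 and 10.69.

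Egr3 had r = 0.09 with Egr1, 0.05 with Egr2 and 0.04 with Egr4 (n = 20, permutation p = 0.702, 0.835 and 0.883, adjusted 0.883 for each, rho = 0.20, 0.08 and 0.06, permutation p = 0.405, 0.729 and 0.796). Its probe set is dim, and how far that lowers the correlation was not tested.

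**Figure D4:**
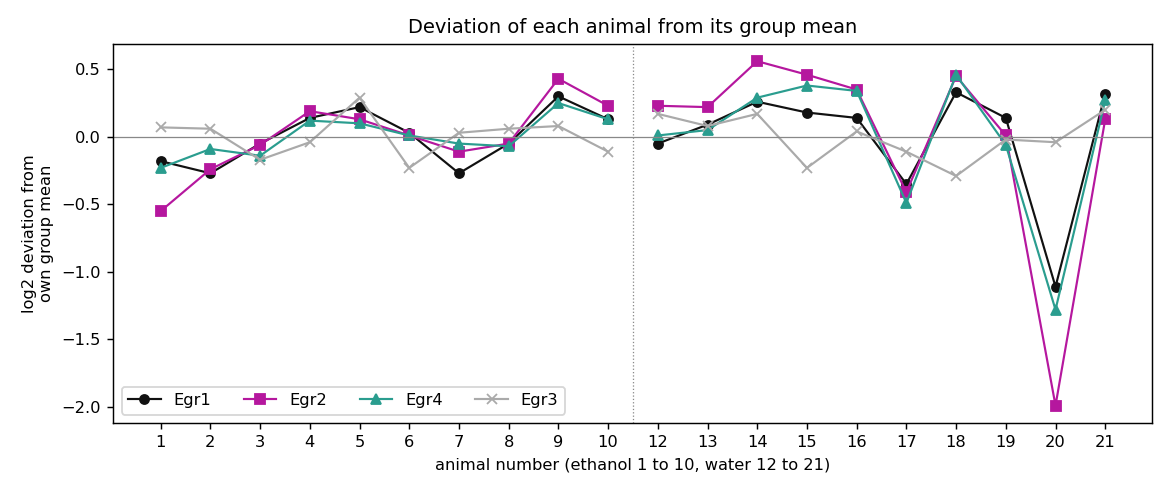
Deviation of each animal from the mean of its own group on the log2 scale, for Egr1 (black), Egr2 (magenta), Egr4 (green) and Egr3 (grey), with ethanol animals left and water animals right of the dotted line. Egr1, Egr2 and Egr4 move together in both groups, with the lowest point in water animal 20, and Egr3 stays within 0.29 of its group means.

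The bright members also went with the neuronal markers, while no relation with RNA integrity passed. Across animals the medium spiny neuron mean had r = 0.79 with Egr1, 0.76 with Egr2 and 0.86 with Egr4 (n = 20, permutation p = 9e-05, 0.00025 and 1e-05, adjusted over 8 relations 0.00036, 0.000667 and 8e-05, rho = 0.77, 0.71 and 0.82, permutation p = 0.00013, 0.00049 and 2e-05). Without water animals 17 and 20, the farthest from the median, r was 0.43, 0.37 and 0.63 (permutation p = 0.0739, 0.131 and 0.00334, adjusted 0.296, 0.349 and 0.0267) and rho 0.60, 0.41 and 0.60 (permutation p = 0.00963, 0.0905 and 0.00913, adjusted 0.0385, 0.241 and 0.0385). Without those animals Egr2 thus passed by neither measure, Egr1 by rho but not by Pearson's r, and Egr4 by both. Without water animal 20 alone each passed, at r = 0.64, 0.60 and 0.79 (adjusted permutation p = 0.014, 0.0211 and 0.0004) and rho = 0.68, 0.57 and 0.70 (adjusted 0.0088, 0.0343 and 0.0088). With Egr3 the marker mean had r = 0.11 over all 20 animals (permutation p = 0.636, rho = 0.23). The 3' minus 5' value had r = 0.04, 0.09, -0.26 and -0.02 with Egr1, Egr2, Egr3 and Egr4 (permutation p = 0.89, 0.726, 0.26 and 0.932, rho = -0.16, 0.0045, -0.15 and -0.17). Without water animal 20 its r was -0.24, -0.20, -0.28 and -0.35 (permutation p = 0.32, 0.424, 0.238 and 0.143), and none passed.

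The 5 genes whose pattern over the 20 arrays was most like that of each bright member included the other bright members and 6 further genes, of which 3 (Nr4a1, Ptgs2 and Fosb) are on the list of early genes. After Egr4 and Egr2, Egr1 was most like Peli1 (r = 0.93), a ubiquitin ligase, Nr4a1 (0.92) and Ptgs2 (0.89). Egr2 was most like Egr4, then Nr4a1 (0.95), Egr1, Peli1 (0.93) and Fosb (0.92). Egr4 was most like Peli1 (0.96), then Egr2, Egr1, Btbd8 (0.94) and Cyria (0.93). These are the highest values among 10746 genes measured on the same arrays. Without water animal 20 the 5 most alike were Slit2 (0.87), Ptgs2 (0.85), Peli1 (0.85), Mchr1 (0.84) and Sertad1 (0.84) for Egr1. For Egr2 they were Fosb (0.92), Nr4a1 (0.91), Egr4 (0.88), Junb (0.87) and Nr4a3 (0.87), 4 of them early genes outside the family. For Egr4 they were Peli1 (0.93), Cyria (0.92), Dhx32 (0.92), Ankrd45 (0.91) and Dlx5 (0.91), none of them on the early list.

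Of the early genes outside the family, 6 rose in ethanol. Of 38 listed, 32 were above the filter, of which 6 rose, 0 fell and 26 did not pass, with a median difference of 0.13 against about 0 over all probe sets, and of all probe sets tested 0.0532% were called higher and 0.0435% lower in ethanol. The list was put together with earlier results of these data known. The matricellular gene Ccn1 differed by 1.94 (adjusted p = 0.0108). Its water mean of 5.86 lay below the dimness level of 6.65 and its ethanol mean of 7.80 above it. Ccn1 thus entered the fit only through the group where it was high, and its place among the 6 is a description. Arc, a synaptic gene and reported Egr target, differed by 1.005 (adjusted p = 0.0399), Ier2 by 0.77 (adjusted p = 0.0136), the phosphatase Dusp1 by 0.76 (adjusted p = 0.0192), Fos by 0.75 (adjusted p = 0.0156) and Klf2 by 0.73 (adjusted p = 0.00343). The call for Arc was lost on leaving out any of 13 animals (ethanol 1, 2, 3, 4, 5, 6, 9 and 10, water 12, 15, 17, 19 and 21), with differences of 0.85 to 1.07 over all leave-one-out fits and adjusted p up to 0.109. The 3' minus 5' value was 1.205 ± 0.12 in ethanol and 1.403 ± 0.22 in water (SD, n = 10 each). With it as a covariate 5 of the 6 lost their call, at adjusted p = 0.139 for Arc, 0.0952 for Fos, 0.177 for Ier2, 0.196 for Dusp1 and 0.0766 for Ccn1, while Klf2 kept it (adjusted p = 0.0308). Their differences were then 1.12, 0.79, 0.74, 0.75, 2.01 and 0.76. All 12 oligodendrocyte markers had a negative difference, with a mean of 11.33 ± 0.27 in ethanol and 11.50 ± 0.32 in water, and none passed. With the oligodendrocyte mean as a covariate all 6 early genes kept their call (limma, adjusted p = 0.0069 to 0.0267). They also kept it with the medium spiny neuron mean as a covariate (adjusted p = 0.00314 to 0.0298). The part of RNA integrity and of tissue make-up in these results was not tested further. The further Fos probe set, a dim one, differed by 0.01 without passing. Those of Klf2 differed by 0.05, 0.11 and 0.79 above the filter and by 0.0027 below it, and none passed. The further Dusp1 probe set, also dim, differed by 0.91 and passed in the fit without the filter (limma, adjusted p = 0.0153).

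The Egr genes were also set against Fos and Arc within the same animal. Fos and Arc were taken because they had risen and the Egr genes had not, so the gap had to change by about the rise of Fos or Arc, and it is given as a description with no test. A gap between 2 probe sets has no meaning by itself, and only its change between groups is read. Egr1 minus Arc was 2.59 ± 0.24 in ethanol (range 2.25 to 2.99) and 3.56 ± 0.25 in water (range 3.22 to 3.87), a change of -0.97. For Egr2 and Egr4 minus Arc the change was -1.03 and -1.02. Against Fos, the gap of Egr1 was 1.22 ± 0.27 in ethanol and 1.94 ± 0.39 in water, a change of -0.71. That of Egr2 changed by -0.78 and that of Egr4 by -0.76. Egr3, on its dim probe set, changed by -0.59 against Fos and -0.85 against Arc.

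**Figure D5:**
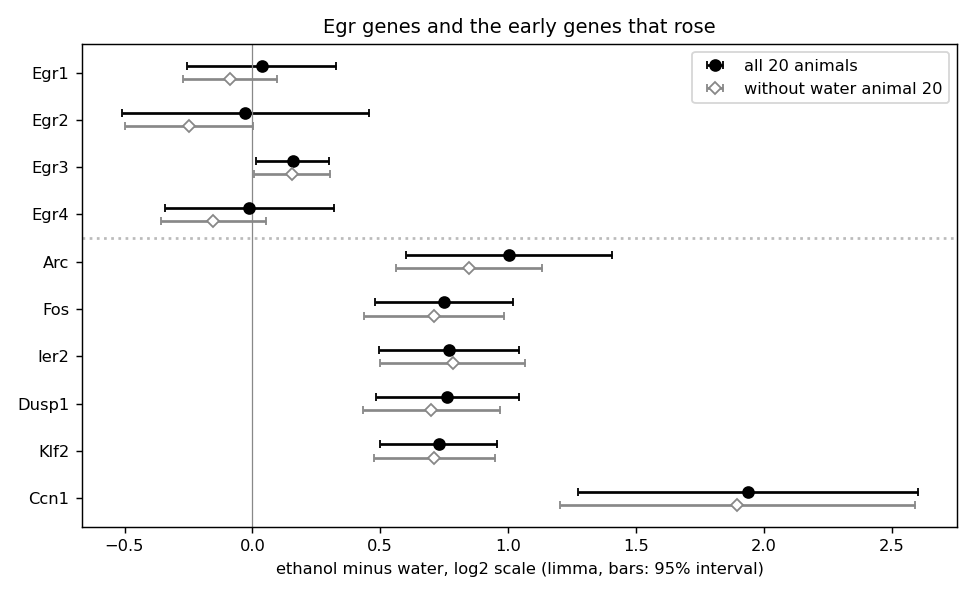
Ethanol minus water on the log2 scale with 95% intervals from limma, for the 4 Egr genes (above the dotted line) and the 6 other early genes that rose, with all 20 animals (black circles) and without water animal 20 (open diamonds). The Egr genes lie between -0.03 and 0.16 with all animals and between -0.25 and 0.15 without animal 20, and the other genes between 0.70 and 1.94 in either setting. Ccn1 passed the filter on dim probe sets only through its ethanol values.

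Among the 6 early genes that rose, some went with the Egr genes across animals and some did not. Arc had r = 0.86 with Egr1, 0.87 with Egr2 and 0.87 with Egr4 (n = 20, permutation p = 5e-05, 5e-05 and 3e-05, adjusted over 18 relations 0.0003 for each, rho = 0.67, 0.75 and 0.68, permutation p = 0.00159, 0.00024 and 0.00119). Without water animal 20 alone, r was 0.66, 0.69 and 0.68 (adjusted permutation p = 0.0137 for each) and rho 0.62, 0.61 and 0.48 (adjusted 0.0509, 0.0509 and 0.135). With water animals 17 and 20 left out, no relation of Arc passed, at r = 0.47, 0.51 and 0.43 (adjusted p = 0.184, 0.135 and 0.225), though r stayed positive. Dusp1 had r = 0.63, 0.64 and 0.65 (permutation p = 0.00144, 0.00092 and 0.00095, rho = 0.58, 0.65 and 0.65), and 0.32, 0.41 and 0.31 without the same animals, where none passed. Fos had r = 0.47, 0.52 and 0.45 (permutation p = 0.0311, 0.0106 and 0.0399, adjusted 0.0701, 0.0273 and 0.0797, rho = 0.43, 0.51 and 0.42, adjusted 0.118, 0.0514 and 0.119), and 0.66, 0.56 and 0.58 without ethanol animal 1 and water animal 21, the farthest in Fos. Without water animal 20 alone, Fos had r = 0.43, 0.59 and 0.40 (adjusted permutation p = 0.133, 0.0227 and 0.163).

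Ier2 had r = 0.14, -0.02 and 0.04 with Egr1, Egr2 and Egr4 (permutation p = 0.561, 0.933 and 0.882, rho = 0.22, -0.03 and 0.04), Ccn1 0.21, 0.14 and 0.15 (permutation p = 0.351, 0.503 and 0.488) and Klf2 0.30, 0.42 and 0.30 (permutation p = 0.202, 0.0657 and 0.204). None of these 9 passed by Pearson's r over all 20 animals, and by rho Klf2 with Egr2 did (0.54, adjusted p = 0.0379, and 0.127 without ethanol animal 1 and water animal 13). Without water animal 20, Klf2 with Egr2 passed by Pearson's r (0.62, adjusted permutation p = 0.0227) but not by rho (0.59, adjusted 0.0509).

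The proteins that act with the Egr factors showed no called gene. Of 8 listed, 7 were above the filter, 0 passed in either direction, 2 had a positive and 5 a negative difference, and the median was -0.02. Over all probe sets tested 0.0966% passed, so 0 of 7 is near the background. Nab1 differed by 0.04 and Nab2 by 0.01 (adjusted p = 0.777 and 0.975). Sp1, whose GC-rich sites overlap those of Egr1 at many promoters, differed by -0.18 (adjusted p = 0.259), Hcfc1, a chromatin cofactor, by -0.11 (adjusted p = 0.355) and Ep300, an acetyltransferase, by -0.05 (adjusted p = 0.633). The further Sp1 probe sets differed by -0.06 to 0.03.

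The pathway that drives Egr transcription had no called gene either. Of 26 listed genes 19 were above the filter, 0 rose and 0 fell, 11 differences were positive and 8 negative, and the median was 0.01. With 0.0966% of all probe sets passing, 0 of 19 is near the background too. Creb1, the factor of the cAMP response element, differed by -0.11 (adjusted p = 0.439), Rps6ka3, a kinase that phosphorylates it, by 0.18 (adjusted p = 0.467) and Prkaca, the catalytic subunit of protein kinase A, by -0.17 (adjusted p = 0.497). Srf, which binds CArG boxes, differed by 0.10 (adjusted p = 0.606). These are transcript levels, and the activity of these proteins was not measured.

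Of 20 reported Egr targets, 14 were above the filter, and 1 of them, Arc, rose, 0 fell and 13 did not pass, with a median difference of 0.03. Over all probe sets tested 0.0532% were called higher and 0.0435% lower in ethanol. This list too was put together with earlier results of these data known. Gabra4, a subunit of the GABA-A receptor reported to be driven by Egr3, differed by 0.36 (adjusted p = 0.399) and Htr2a, a serotonin receptor, by 0.35 (adjusted p = 0.387). Cdk5r1, an activator of Cdk5, differed by 0.24 (adjusted p = 0.327), and the synapsins Syn1 and Syn2 by -0.05 and 0.05 (adjusted p = 0.781 and 0.672). Targets named beside Arc were chosen after their values were seen.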

How the data were processed

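The values the authors deposited are log2 RMA values (background correction, normalization between arrays and summary of probes; RMA is named per the submitters' processing notes), with array medians of 7.93 to 7.98. Per the labels' protocols, biotin-labelled cRNA was made from total RNA with a kit that labels from the 3' end. The sources used here name no software or chip definition. The number of arrays limits the precision.

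All 20 columns were used. Probe sets naming 1 gene (20832, of which 20764 matched RefSeq, GRCr8, by identifier) were named. 57 controls and the dimmest 33.3% were left out. limma 3.58.1 in R 4.3.3 (lmFit, eBayes, no covariate) was fitted to 20695 probe sets with Benjamini-Hochberg adjustment at 0.05. It was tested on simulated data with independent normal values and the same SD in both groups. That test does not cover the unequal spread or the outlying array of these data. Correlations used deviations from group means. Permutation tests were two-sided with 100000 resamples.

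The members, lists and comparators were chosen with earlier results of these data known. List genes named are those that passed, or the 3 of smallest p, and likeness means the 5 highest correlations. Others are named after seeing their values. The 3' minus 5' value averages the beta-actin and GAPDH controls. The run in the order of deposit, used in an alternative, is no batch that a label names.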

Additional observations from a re-analysis of the deposited data

Results flagged for a closer look

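Of 40 groups of values checked for a sample lying far from the rest, 4 held one, and chance gives about 1 in 20. Water animal 20 lay far below the other water animals for Egr1, at 12.05 with the next at 12.81, and for Egr2, at 8.72 with the next at 10.30. The same animal lay far above the others for Prkaca, at 10.42 with the next at 9.74. Ethanol animal 5 was low for Sp1, at 9.32 with the next at 9.51. Over all 20695 probe sets, animal 20 lay this far below the other water animals for 180 (0.87%) and this far above for 395 (1.91%). Water animal 12 stood apart for 678 probe sets in either direction and animal 20 for 575, against 14 to 194 for the other 8 water animals.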

How the results depend on the processing

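No Egr gene passed in any alternative run. Signs near 0 turned, and the cause was not tested except where an animal was left out. Egr1 differed by -0.0967 with array weights, -0.16 with the medium spiny neuron mean and -0.0589 with the oligodendrocyte mean as covariate, and -0.15 without water animals 17, 19 and 20. Egr2 differed by 0.0335 with the 3' minus 5' value as covariate, 0.00547 as the mean of its probe sets and 0.0379 on its further probe set. Leaving out each animal in turn gave -0.0866 to 0.073 for Egr1 (negative without water animals 17 or 20), -0.248 to 0.0359 for Egr2, 0.126 to 0.184 for Egr3 and -0.152 to 0.039 for Egr4, with adjusted p of at least 0.317. In the runs of the order of deposit, Egr2 differed by -0.56, -0.12 and 1.24. Runs 1 and 2 held 4 animals of each group, and run 3 only 2 of each, water animal 20 among them. The count of 20 probe sets called was 10 with the stricter filter, which tests fewer, 38 with array weights, 7 with the 3' minus 5' value and 46 with the medium spiny neuron mean as covariate, 50 without water animals 17, 19 and 20, and 14 to 24 on leaving out each animal. The stricter filter gave no value for Egr3. Arc did not pass there (adjusted p = 0.0562), and with the 3' minus 5' value as covariate Arc, Fos, Ier2, Dusp1 and Ccn1 differed by 1.12, 0.79, 0.74, 0.75 and 2.01 without passing. Fos lost its call when water animals 17, 19 and 20 were left out (0.659, adjusted p = 0.0539).

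Correlations near 0 also turned, some others weakened, and 3 passed by Pearson's r only in an alternative. These were Fos with Egr1 and Egr4 without ethanol animal 1 and water animal 21 (adjusted permutation p = 0.023 and 0.0409), and Klf2 with Egr2 without water animal 20 (0.0227). By rho none of the 3 passed there (adjusted 0.127, 0.127 and 0.0509). Egr3 had r = -0.04 with Egr1 without water animals 17, 19 and 20 and -0.04 without the 2 farthest animals. With Egr2 it had -0.0092 without animal 20, -0.17 without the 3 animals and -0.03 in ethanol, and with Egr4 -0.03 and -0.27 without 1 and 3 animals. The 3' minus 5' value had r = -0.24 and -0.20 with Egr1 and Egr2 without animal 20, and -0.08 and -0.05 without water animals 12 and 18, the farthest in that value. Without water animals 17 and 20, the medium spiny neuron mean had 0.43 and 0.37 with Egr1 and Egr2, weaker but of the same sign, and -0.02 with Egr3. Leaving out the same animals gave the further Egr4 probe set -0.07 with the brighter one. Without ethanol animals 5 and 7, the farthest in Ier2, Ier2 had -0.0078 with Egr1 and -0.0078 with Egr4. Without animal 20 Ier2 had 0.14 with Egr2. Alternatives without animal 20 alone in correlations and gaps were chosen after seeing the data. No paired analysis was possible because the animal numbers of ethanol and water do not repeat.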
